A study of Heterocephalus glaber with 3 samples.

Results

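Among the cells captured from naked mole-rat lung tumours, a small class carried transcripts of KRT14, a keratin of basal epithelial cells, or of SPINK5, a secreted serine protease inhibitor. A cell belonged to the class when KRT14 and SPINK5 together reached at least 5 UMIs per 10000 of its own UMIs and at least 2 UMIs in all. The same rule required fewer than 5 per 10000 from the bone-matrix genes DMP1 and IBSP together and fewer than 100 per 10000 from the surfactant gene SFTPC. By this rule 742 of 25044 cells (2.96%) were KRT14 or SPINK5 cells, 194 of 8078 in replicate 1, 296 of 9015 in replicate 2 and 252 of 7951 in replicate 3. The share per animal was 2.40% (exact 95% binomial interval 2.08 to 2.76), 3.28% (2.93 to 3.67) and 3.17% (2.80 to 3.58), with a mean of 2.95% ± 0.480 (SD, n = 3 animals). These intervals cover counting error only.

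All 3 animals were Heterocephalus glaber that had received an adenovirus with CRISPR reagents, aimed, among other edits, at an Eml4-Alk inversion and at Rb loss, and all were sampled 15 weeks after infection. They form 1 group, with 1 library of 10x Genomics 3' counts per animal, and no untreated animal is among them. Tumours were cut out of the lungs by hand, so host immune, stromal and normal epithelial cells were captured with any edited cells. The sources used here do not give the promoter that drove the nuclease, the cell types infected or the ages of the animals. All comparisons were therefore between cell classes of the same animals, and the members were chosen from measured KRT14 and SPINK5 counts.

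Basal cells line the base of stratified and airway epithelia. They are known for the keratins KRT5 and KRT14, the transcription factor TP63 and an anchor to the basement membrane made of integrin alpha-6 beta-4, collagen XVII and a laminin that contains LAMA3 and LAMB3. In the airway they act as progenitors of secretory and ciliated cells, and squamous tumours share much of their gene set. SPINK5 encodes LEKTI, which inhibits kallikrein-type proteases and is known from the upper layers of squamous epithelia. SERPINE2, protease nexin-1, inhibits thrombin and plasminogen activators outside the cell.

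The deposited matrices held 76093932, 86575320 and 91949365 UMIs in replicates 1, 2 and 3. The libraries shared between 21 and 31 barcodes in pairs, and 0 of these were KRT14 or SPINK5 cells in both libraries. KRT14 or SPINK5 cells were deep: their median was 19611.5, 20352.5 and 14199.5 UMIs, against 4910, 5105 and 8012 in all other cells. Their median mitochondrial share, 6.14%, 6.51% and 7.39%, lay near that of the other cells, 6.35%, 6.20% and 7.29%. A doublet score of at least 0.2 was reached by 3, 4 and 5 members (1.55%, 1.35% and 1.98%), against 1.85%, 1.38% and 2.17% of other cells. Replicate 2 stood apart from the others in what its members expressed, as described next.

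KRT14 summed over the members reached 2639, 3495 and 3398 CPM (UMIs per 1000000 of the summed class) in replicates 1, 2 and 3, and 17.6, 38.4 and 18.8 CPM in all other cells. SPINK5 reached 470, 906 and 352 CPM in members and 10.8, 8.70 and 6.56 CPM elsewhere. Both gaps follow from the rule and were not tested. At the level of single cells the pair of genes coincided in only part of the class: 362 members (48.8%) had UMIs of both, 311 (41.9%) had KRT14 alone and 69 (9.30%) SPINK5 alone. Replicate 2 held 196 of the cells with both genes, against 73 in replicate 1 and 93 in replicate 3. Cells with both genes were deeper, with medians of 23964, 26621 and 20275 UMIs in replicates 1, 2 and 3. Those with KRT14 alone had 11918, 2788 and 11096.5 UMIs, and those with SPINK5 alone 14133, 17138 and 14520. The part of depth in finding 1 gene alone was not tested. The median of the summed level was 15.2, 18.3 and 20.6 per 10000 UMIs, and the highest cells reached 303, 309 and 228. The threshold cut through a continuous range, since 52 members lay between 5 and 6 per 10000 and 84 further cells with at least 2 UMIs lay between 4 and 5. A total of 338 members (45.6%) also met a stricter gate of 20 per 10000 and 5 UMIs. Outside the class, 4221 other cells (17.4%) had at least 1 UMI of either gene, at median depths of 12972, 11183 and 12967 UMIs, so low counts of these genes were widespread.

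**Figure D1:**
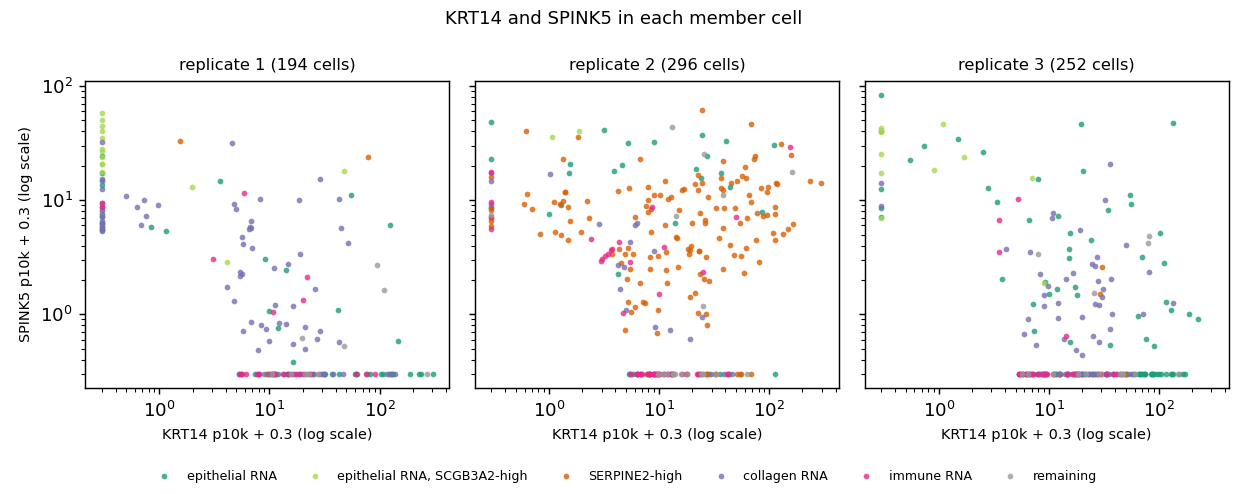
Level of KRT14 (horizontal axis) against SPINK5 (vertical axis) in each KRT14 or SPINK5 cell, in UMIs per 10000 of the cell plus 0.3 on log scales, 1 panel per animal, coloured by the subgroups described in the text. The 362 cells with UMIs of both genes fill the middle of the panels, most densely in replicate 2, and the cells with 1 gene alone lie along the axes.

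The label of basal-type cells was met by part of the class only. KRT5 and TP63, the defining basal markers, were measured in every animal, but 471 of the 498 KRT5 UMIs and 63 of the 69 TP63 UMIs of the class sat in members with epithelial RNA. In replicate 2, with 8 TP63 UMIs in all members, 3 were in epithelial and 5 in SERPINE2-high members. To describe this, members were split after their values had been seen, by levels of other genes, into exclusive subgroups. Epithelial members had EPCAM, KRT8 and CDH1 at 3 or more per 10000 and at least 2 UMIs, and those with SCGB3A2 at 20 or more were set apart before them. The rest was split in turn into SERPINE2-high members (20 or more), collagen members (COL1A1, COL1A2 and COL3A1 at 10 or more), members with immune RNA (PTPRC, CD3E, CD3D and TYROBP at 3 or more) and remaining cells. The genes that define a subgroup are therefore no finding in it, and no test was made between subgroups.

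Epithelial members numbered 187 (25.2% of the class), SCGB3A2-high epithelial members 35 (4.72%), SERPINE2-high members 172 (23.2%), collagen members 204 (27.5%), members with immune RNA 99 (13.3%) and remaining cells 45 (6.06%). The animals differed widely in this make-up. SERPINE2-high cells were 6 of the members in replicate 1 (3.09%), 158 in replicate 2 (53.4%) and 8 in replicate 3 (3.17%). Epithelial cells made up 24.2%, 12.5% and 40.9% of the members, and collagen cells 45.4%, 8.78% and 35.7%. Some cuts fell in a dense range: the values of 57 members lay within 1.5-fold of the epithelial threshold, 49 near the SERPINE2 threshold, 98 near the collagen threshold and 200 near the immune threshold.

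**Figure D2:**
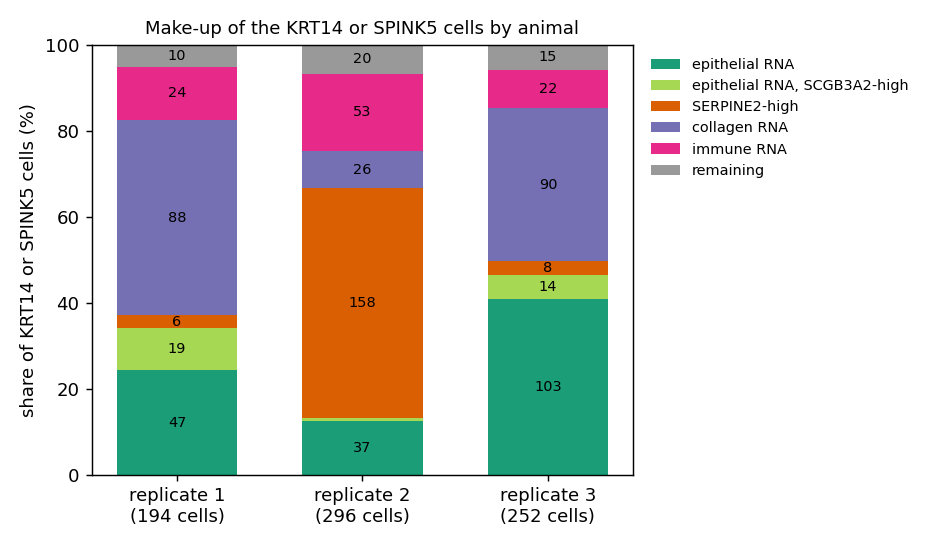
Share of the KRT14 or SPINK5 cells of each animal (percent, vertical axis) that fell into each subgroup, with numbers of cells in the bars. SERPINE2-high cells took 53.4% of the class in replicate 2 and about 3% in the other animals (3.09% and 3.17%), where collagen and epithelial cells prevailed.

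Summed over the animals, epithelial members held most KRT5 and TP63 counts of the class. A KRT5 UMI was present in 6.70%, 0.676% and 12.3% of all members in replicates 1, 2 and 3. Epithelial cells made up 24.2%, 12.5% and 40.9% of the members, so many epithelial members had none. KRT5, the keratin partner of KRT14, reached 290, 19.4 and 91.7 CPM in their sums in replicates 1, 2 and 3. TP63, the basal lineage factor, stood at 22.9, 4.49 and 21.3 CPM. LAMA3, the alpha chain of the anchoring laminin, stood at 138, 29.9 and 223 CPM, and its level in replicate 2 was the lowest, as for KRT5 and TP63. The related type I keratin KRT17, a keratin of basal and injured epithelium, stood at 1073, 233 and 1548 CPM. LAMB3, the beta chain, reached 578, 620 and 934 CPM, close to even across the animals. Among their leading genes relative to the other subgroups were also GRP (a bombesin-like peptide, at 88.0, 2.99 and 150 CPM), the gap junction gene GJB2, the protease MMP7, the retinal dehydrogenase ALDH1A3 and the desmosomal linker DSP. Vimentin, an intermediate filament of mesenchymal cells, was abundant in them as well, at 4426, 4179 and 2483 CPM.

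SERPINE2-high members carried KRT14 and SPINK5 with few or no counts of KRT5, TP63 and the laminin chains. In replicate 2, which held 158 of the 172, KRT14 stood at 3891 and SPINK5 at 864 CPM, and 138 of the 158 cells had UMIs of both genes. KRT5 had 0 UMIs in the whole subgroup, which allows up to 0.621 CPM at 3 counts. CDH1 likewise had 0, but members with higher EPCAM, KRT8 and CDH1 had been set apart before this subgroup was drawn. The low CDH1 is therefore no finding, and that order of the split also favoured low levels of genes that vary with these 3. TP63 had 0, 5 and 0 UMIs in replicates 1, 2 and 3, 1.10 CPM in replicate 2. LAMB3 stood at 6.01, 6.39 and 48.7 CPM in replicates 1, 2 and 3, and LAMA3 at 0, 1.10 and 0 CPM. KRT17, in contrast, reached 773 CPM in replicate 2, with 210 in replicate 1 and 89.3 in replicate 3. TIMP1, an inhibitor of metalloproteinases, stood at 11495, 19201 and 33522 CPM. SOX2, a stem cell and foregut factor, reached 76.2 CPM in replicate 2, against 19.4 in the epithelial members of that animal. ITM2A (18.0, 394 and 16.2 CPM), the macrophage elastase MMP12 (1100, 2022 and 1202 CPM) and IGFBP2, an IGF carrier (5904, 1565 and 24.4 CPM), led the subgroup besides SERPINE2 itself (4990, 7144 and 2867 CPM). Of these, MMP12 was the least uneven across the animals.

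The SERPINE2-high members of replicate 2 also held RNA of leukocyte genes. Their PTPRC (CD45) sum was 146 CPM and their TYROBP sum 213 CPM. A PTPRC UMI was present in 134 of these 158 cells, and in 371 of all 742 members (50%). In cells thinned to 2000 UMIs, 10.3%, 28.4% and 8.33% of members had one in replicates 1, 2 and 3. Other cells had one in 50.7%, 62.5% and 45.3%. For the sums of PTPRC and TYROBP, epithelial members of replicate 2 had 102 and 227 CPM, DMP1 or IBSP cells 118 and 323 CPM, and all other cells 579 and 2640 CPM. The part of free or engulfed leukocyte RNA in these levels was not tested.

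Collagen members were led by stromal genes. COL1A1 stood at 3804, 1201 and 3573 CPM, a gene used to define them, and the genes not used for that included the protease MMP3 (2227, 156 and 245 CPM), IGF2 (577, 244 and 570 CPM), the homeobox gene PRRX2, the proteoglycan BGN and SPARC. KRT17 was low in them at 32.6, 129 and 153 CPM. In the SCGB3A2-high members, SCGB3A2, a product of airway club cells and a gene used to define them, reached 29263, 30356 and 48538 CPM. Replicate 2 held 2 of these cells. Their leading genes not used for that included CRYM, LTF, AGR2, PIGR, CLDN10 and AQP5. LTF was uneven, at 2178, 1637 and 8.90 CPM. In 20 of these 35 cells SPINK5 was present without KRT14. Members with immune RNA were led by RETN, NKG7, CD53, CD3E, CSF1R, IL1B, TNF and TYROBP, and they were shallow, with median depths of 3250, 2800 and 3901 UMIs. At such depths 2 UMIs suffice for the gate, and 61 members of the whole class (8.22%) had just 2.

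**Figure D3:**
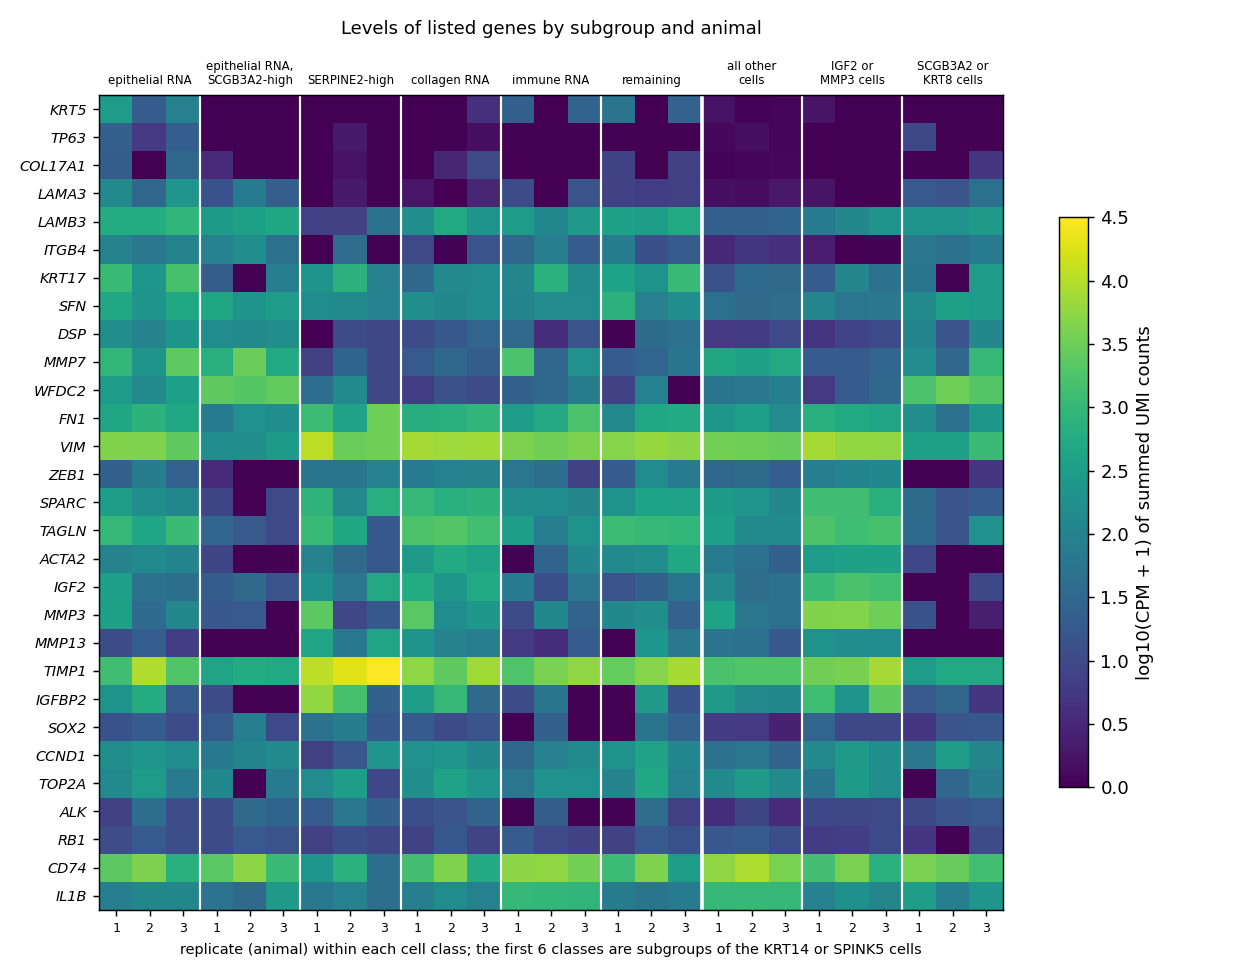
Heat map of log10(CPM + 1) for genes of each role (rows) in the summed counts of each subgroup of KRT14 or SPINK5 cells, of all other cells, of IGF2 or MMP3 cells and of SCGB3A2 or KRT8 cells, 1 column per animal. KRT5 and TP63 are highest in the epithelial members, and TIMP1 is highest in the SERPINE2-high members.

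Summed per animal, KRT14 or SPINK5 cells were compared with all other cells of the same animals by edgeR's quasi-likelihood test with the animal as block and Benjamini-Hochberg adjustment over 14461 features at 0.05. Of these, 4202 were called (29.1%), 1872 higher (12.9%) and 2330 lower (16.1%) in the members, so a call in itself was common. The p-values are conditional on the choice of cells: genes that vary together with KRT14 or SPINK5 were favoured by it. The median log2 difference over all features was -0.03, and fitted differences lay 0.25 (median) below the plain ratio of CPM values because of library scaling. With each cell weighted equally the calls were 2710 higher and 1864 lower, 59.2% higher in place of 44.6%. In summed counts, fewer cells expressing a gene and less RNA per cell cannot be told apart.

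Basal identity genes were higher in members, 8 of 11 tested and 0 lower, with a median log2 difference of 2.09. KRT5 stood at 73.1, 2.02 and 39.7 CPM in members and 0.665, 0.106 and 0.155 CPM in other cells, a log2 difference of 6.52 ± 0.50 (SE, adjusted p = 0.000135). The member sums lay above the other cells in each animal, yet replicate 2 was far below the other two. KRT17, at 307, 628 and 737 CPM against 12.2, 36.2 and 34.8 CPM, was 4.14 ± 0.17 higher (adjusted p = 4.64e-05). KRT14 and KRT17 are close relatives, and how the authors' counting shared reads between near-identical stretches is not given in the sources used here. TP63 was 3.63 ± 0.77 higher (adjusted p = 0.012) on few counts, 5.55, 1.24 and 8.68 CPM against 0.257, 0.488 and 0.181 CPM. It was not called without replicate 1 (3.29, adjusted p = 0.105) or when members needed UMIs of both genes (2.02, adjusted p = 0.188), and stood at 4.69 without replicate 2. TRIM29, a basal epithelial partner of squamous programs, rose by 6.91 ± 0.41 (adjusted p = 5.38e-05), with 12.0, 0.310 and 24.4 CPM in members. Without replicate 1 the count of basal genes fell to 3 of 12, without replicate 2 it was 11 of 11, and without replicate 3 it was 7 of 11.

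In the basement membrane anchor, 9 of 9 tested genes of hemidesmosomes and their laminin were higher, with a median of 3.24. ITGB4, the integrin subunit that binds this laminin, stood at 42.6, 40.8 and 49.5 CPM in members and 2.33, 4.45 and 3.17 CPM elsewhere. Its log2 difference was 3.52 ± 0.22 (adjusted p = 5.56e-05), and its 3 member values were nearly equal although the animals differed in make-up. LAMA3 was 5.29 ± 0.50 higher (adjusted p = 0.00034) and LAMB3 3.24 ± 0.28 (0.000248). COL17A1, collagen XVII, was 4.62 ± 0.69 higher (adjusted p = 0.00262), from 5.32, 0.621 and 16.7 CPM. Without replicate 1, 7 of 9 genes were called, and 7 of 8 when other cells were matched to the members on UMIs.

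Desmosomes and cadherins, which join epithelial cells to each other, were higher in 10 of 11 genes (median 2.24), and 5 of 11 without replicate 1. DSP stood at 62.2, 22.2 and 110 CPM against 4.66, 4.90 and 8.72 CPM, 2.96 ± 0.29 higher (adjusted p = 0.000386). Simple epithelial genes were higher in 8 of 10 (median 1.77), and in 5 of 11 without replicate 1. EPCAM, an epithelial surface protein, was 3.42 ± 0.26 higher (adjusted p = 0.00013) at 296, 90.8 and 327 CPM against 18.5, 13.3 and 17.6 CPM. KRT8, a keratin of simple epithelium, was 3.31 ± 0.30 higher (adjusted p = 0.00026). The zinc finger factor KLF5 of epithelial progenitors was even across animals, 115, 127 and 143 CPM against 19.5, 12.5 and 17.5 CPM, a log2 difference of 2.73 ± 0.20 (adjusted p = 0.000115).

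Squamous differentiation genes went both ways, 6 higher and 3 lower of 14 (median 1.16). SFN (14-3-3 sigma), at 293, 143 and 297 CPM against 43.0, 34.7 and 39.5 CPM, and S100A14 (3.09 ± 0.33, adjusted p = 0.000578) were higher, as was SBSN, a cornified layer protein (1.96 ± 0.33, adjusted p = 0.0047). KRT1, a keratin of the suprabasal epidermis, was -4.35 ± 0.54 and stood at 0.925, 0 and 0.235 CPM in members. CNFN, a cornified envelope protein, was -3.73 ± 0.23 (adjusted p = 5.48e-05). SBSN was not called on UMI-matched cells (adjusted p = 0.055).

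**Figure D4:**
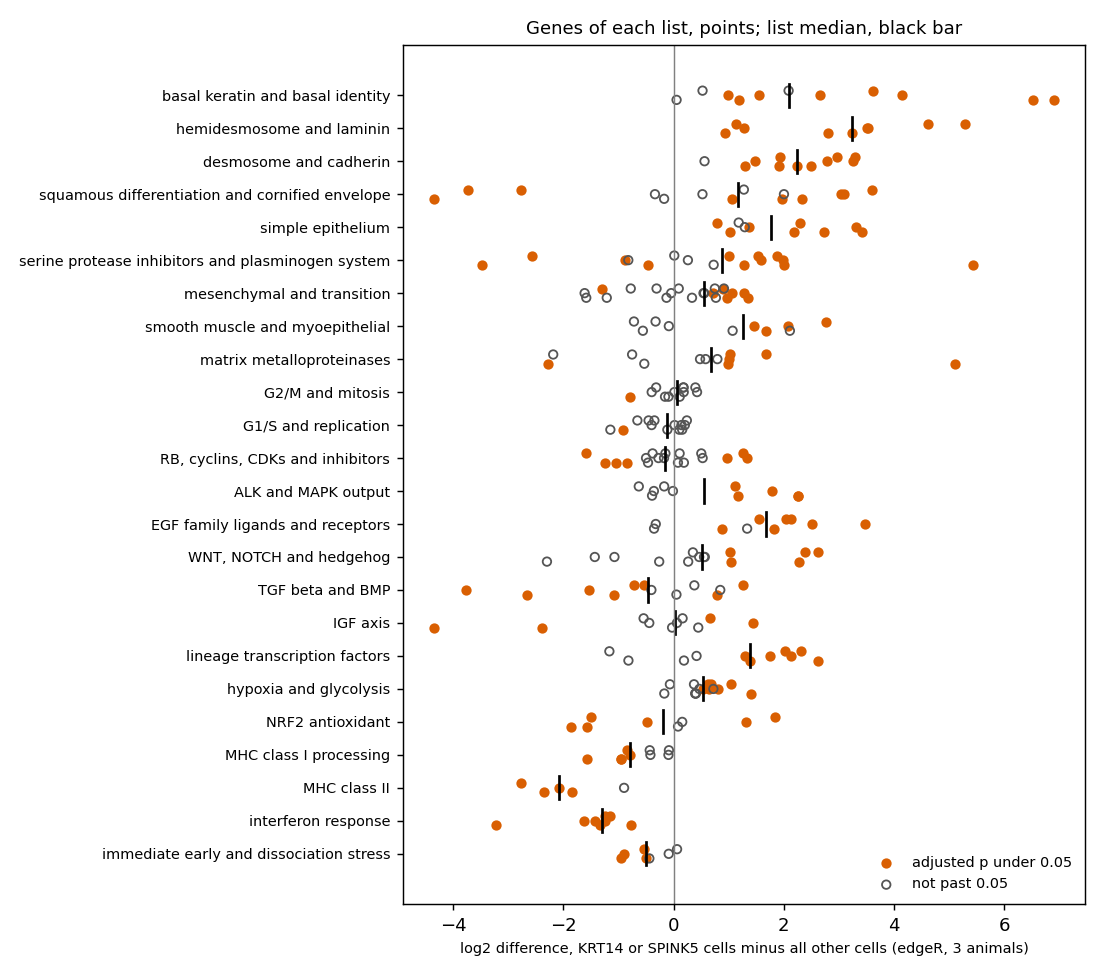
Log2 difference (edgeR) between KRT14 or SPINK5 cells and all other cells for the tested genes of each list, 1 point per gene, filled where adjusted p was under 0.05, with a black bar at the list median. All 9 hemidesmosome and laminin genes lie above 0 and all 8 interferon response genes below it.

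Among named genes with at least 20 CPM in members of every animal, the largest differences beside those above were the following. MAB21L3 was 4.29 ± 0.26 higher (adjusted p = 5.5e-05), FOXQ1, a forkhead factor, 3.67 ± 0.23 (6.2e-05) and CTSE, an aspartic protease of the stomach lining, 3.63 ± 0.22 (5.5e-05). FOXQ1 was even, at 25.4, 33.2 and 22.8 CPM against 1.83, 1.74 and 1.77 CPM. The ETS factor EHF of epithelial cells stood at 49.7, 129 and 74.4 CPM against 6.59, 7.58 and 5.85 CPM (3.32 ± 0.26, adjusted p = 0.000136). PTPRZ1, a receptor phosphatase, was 3.00 ± 0.16 higher, with the same direction in 3 of 3 animals. The gastric gene GKN2 was 3.33 ± 0.55 higher (adjusted p = 0.00419), and its call was lost on UMI-matched cells (adjusted p = 0.0596) and without the animal block (0.0665). SCGB3A2 was 3.99 ± 0.30 higher, carried by the 35 SCGB3A2-high members. It was no longer called at a mitochondrial limit of 10% (2.14, adjusted p = 0.183) or without the animal block (adjusted p = 0.0767).

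SERPINE2 itself, named with the class although it was not in the rule, stood at 453, 5296 and 332 CPM in members and 188, 364 and 103 CPM in other cells. Its log2 difference was 1.98 ± 0.51 (adjusted p = 0.0242), with the same sign in 3 of 3 animals and 1.17 without replicate 2 (adjusted p = 3.78e-14). The call was lost against UMI-matched cells (1.18, adjusted p = 0.196) and without the animal block (adjusted p = 0.0777). The wider list of serine protease inhibitors and plasminogen genes gave 8 higher and 4 lower of 16. SERPINB5 (maspin) was 5.43 ± 0.66 higher (adjusted p = 0.00107) at 7.17, 0.931 and 2.58 CPM. SERPINH1, the collagen chaperone HSP47, was 1.88 ± 0.14 higher (adjusted p = 0.000115) at 769, 520 and 482 CPM against 205, 123 and 91.2 CPM. TIMP1 stood at 3972, 15160 and 5553 CPM against 1630, 1904 and 1894 CPM, 1.68 ± 0.35 higher (adjusted p = 0.0112), and 1.11 higher without replicate 2 (adjusted p = 1.18e-12).

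Mesenchymal genes were less uniform, with 6 of 21 higher and 1 lower (median 0.54). COL5A1 was 1.34 ± 0.19 higher (adjusted p = 0.00218) and the matrix protein FN1 1.06 ± 0.29 (0.0331), at 526, 461 and 791 CPM against 243, 347 and 149 CPM. COL3A1, 0.90 higher (adjusted p = 0.00441), lost its call on UMI-matched cells (0.32, adjusted p = 0.122), and with the stricter gate (0.43, adjusted p = 0.119). COL1A1 stood at 2366, 309 and 1802 CPM against 825, 463 and 443 CPM, with replicate 2 below its other cells, and was not called (0.77 ± 0.42, adjusted p = 0.215), but was 1.46 higher without replicate 2 (adjusted p = 1.22e-19). VIM was not called either (0.33, adjusted p = 0.139), but was 0.46 higher without replicate 2 (adjusted p = 0.00343). Of the EMT repressors, ZEB1 was 0.72 ± 0.17 higher (adjusted p = 0.017) and ZEB2, which is also a leukocyte factor, fell by 1.31 on the log2 scale (adjusted p = 0.00116). The calls of FN1 and ZEB1 were lost without replicate 1 (adjusted p = 0.137 and 0.057), without replicate 3 (0.0813 and 0.112) and with the stricter gate (0.0757 and 0.0904). That of COL5A1 was lost without the animal block (adjusted p = 0.0732). With the stricter gate 1 mesenchymal gene was higher and 2 lower, and without replicate 2 there were 12 higher and 4 lower. Of 10 smooth muscle and myoepithelial genes 4 were higher, among them the actin-binding TAGLN at 1310, 583 and 1102 CPM against 341, 144 and 135 CPM (2.08 ± 0.20, adjusted p = 0.000322).

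Ligands and receptors of the EGF family, growth signals of basal epithelium, were higher in 7 of 10 genes (median 1.68). The ligand AREG, amphiregulin, stood at 38.9, 13.7 and 58.7 CPM against 2.89, 1.69 and 2.86 CPM (3.48 ± 0.24, adjusted p = 8.02e-05). The receptors ERBB2 (1.81 ± 0.20, adjusted p = 0.000711), ERBB3 (2.50 ± 0.53, 0.0115) and EGFR (1.54 ± 0.36, 0.0177) were also higher. EGFR and ERBB3 were not called without replicate 1 (adjusted p = 0.115 and 0.0992), without replicate 3 (0.111 and 0.0613) or on UMI-matched cells (0.107 and 0.0522). Without replicate 1, 3 genes of the list were called, and against UMI-matched cells 3 were higher and 1 lower. In the narrower comparisons set out below, the list gave 0 higher and 1 lower of 9 against IGF2 or MMP3 cells. Against SCGB3A2 or KRT8 cells it gave 0 higher and 2 lower of 7, and the 2 were AREG and ERBB2. WNT, NOTCH and hedgehog genes gave 5 higher and 0 lower of 14, among them the NOTCH ligand DLL1 (2.61 ± 0.27, adjusted p = 0.000517) and the stem cell receptor LGR5 (2.39 ± 0.45, adjusted p = 0.00718, and 0.0849 without replicate 1). TGF beta and BMP genes gave 2 higher and 6 lower of 12, with the BMP antagonist GREM1 at -3.78 ± 0.32 (adjusted p = 0.000199). In the IGF axis, 2 of 10 were higher and 2 lower. IGF1, at 0.231, 0.465 and 1.17 CPM against 13.3, 7.56 and 11.1 CPM, was -4.34 ± 0.39 (adjusted p = 0.000267). IGF2 was 1.44 higher, but was not called on UMI-matched cells (adjusted p = 0.181), without replicate 1 (0.0603), with the stricter gate (0.0879) or without the animal block (0.157).

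Lineage transcription factors were higher in 7 of 11 genes and lower in 0 (median 1.39). In the narrower comparisons below, 0 of 8 were higher or lower against IGF2 or MMP3 cells. Against SCGB3A2 or KRT8 cells 0 were higher and 3 lower of 8. SOX2 stood at 17.1, 61.4 and 12.0 CPM in members and 4.94, 4.57 and 1.59 CPM elsewhere (2.61 ± 0.38, adjusted p = 0.00241), with replicate 2 the highest and 2.00 without it. SOX9 (2.32 ± 0.28) and HMGA2, a chromatin protein of embryonic and tumour cells (2.02 ± 0.25), were higher with adjusted p = 0.00101 and 0.00108. The lung factor NKX2-1 was 1.39 ± 0.19 higher (adjusted p = 0.00164) at 75.2, 50.3 and 81.0 CPM against 24.0, 23.9 and 17.7 CPM, and lost its call on UMI-matched cells (0.76, adjusted p = 0.056).

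ALK, the receptor tyrosine kinase gene of the engineered inversion, was counted 40, 336 and 77 times in members. These counts gave 9.25 CPM (exact 95% Poisson interval 6.61 to 12.6), 52.1 CPM (46.7 to 58.0) and 18.1 CPM (14.3 to 22.6). All other cells had 2.89, 7.55 and 2.38 CPM. The means were 26.5 ± 22.6 and 4.27 ± 2.85 CPM (SD, n = 3 animals). The members exceeded the other cells 3.21-fold, 6.91-fold and 7.60-fold, a mean of 5.90 ± 2.36, and the fitted log2 difference was 2.26 ± 0.26 (adjusted p = 0.000822). It was 2.03 without replicate 2 and 1.45 on UMI-matched cells (adjusted p = 2.05e-10 and 0.0191). Within the class the order of the subgroups differed between animals. SERPINE2-high members had 61.2 CPM (54.2 to 68.8) in replicate 2, from 278 UMIs, but 18.0 and 24.4 CPM in replicates 1 and 3, from 3 UMIs each. Epithelial members had 6.69, 41.9 and 10.7 CPM, so replicate 2 was high in that subgroup too. Collagen members had 11.0, 14.3 and 25.7 CPM, and in replicate 3 they lay above the epithelial members, with intervals that did not overlap (49 and 18 UMIs). These Poisson intervals cover counting error only and not the spread between cells, so they do not test the subgroups against each other. Members with immune RNA had 0, 20.6 and 0 CPM. Counts per gene do not show whether an ALK transcript came from the inverted allele, and EML4 was not analysed here.

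**Figure D5:**
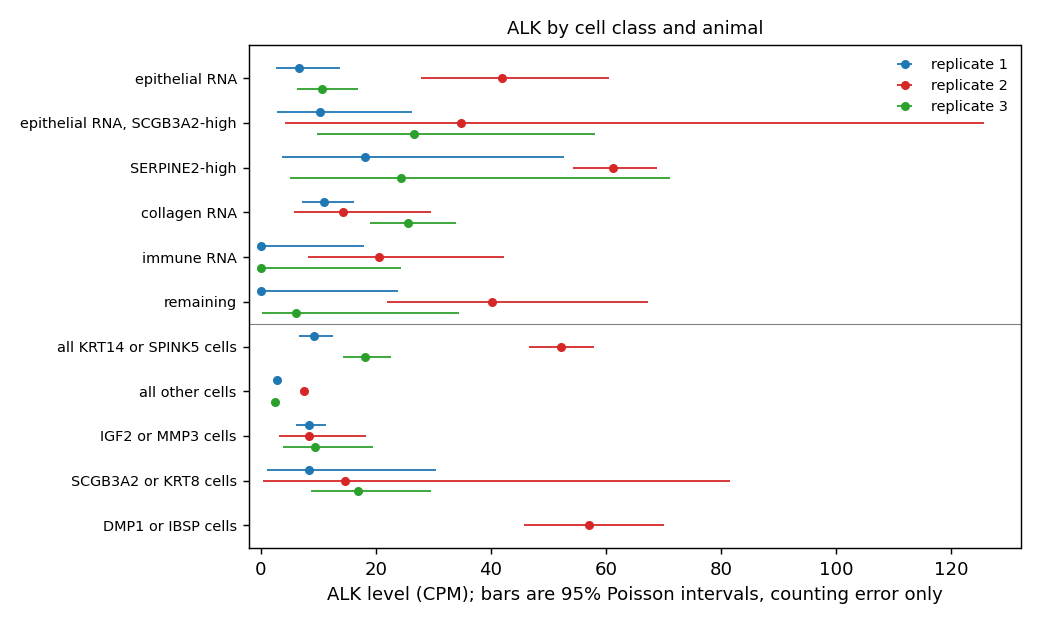
ALK in CPM (horizontal axis) with exact 95% Poisson intervals in the summed counts of each cell class and subgroup, by animal. KRT14 or SPINK5 cells lie at 9.25, 52.1 and 18.1 CPM and all other cells at 2.89, 7.55 and 2.38 CPM, with the SERPINE2-high members of replicate 2 at 61.2 CPM and its DMP1 or IBSP cells at 57.0 CPM.

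Output genes of ALK and MAPK signalling were higher in 5 of 10 and lower in 0 (median 0.55), and in 2 against UMI-matched cells. FOSL1, an AP-1 factor induced by ERK, stood at 26.1, 47.0 and 18.1 CPM against 5.09, 6.38 and 3.88 CPM (2.26 ± 0.22, adjusted p = 0.000405). SPRED1, a feedback inhibitor of RAS, was 1.11 ± 0.23 higher (adjusted p = 0.0109) and the ETS factor ETV4 1.79 ± 0.26 (0.00248). Neither was called on UMI-matched cells (adjusted p = 0.13 and 0.0668), nor SPRED1 without replicate 3 (0.0511).

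RB1, the gene targeted for loss, stood at 8.33, 12.6 and 9.39 CPM in members and 16.0, 19.6 and 10.8 CPM in other cells. The log2 difference was -0.84 ± 0.19 (adjusted p = 0.0138), and the call was lost without replicate 1 (adjusted p = 0.131), with the stricter gate (0.0879) and on UMI-matched cells (0.0632). Tags at the 3' end need not cover an edited site, so the level of RB1 checks no edit. The list of RB and E2F family genes, cyclins, CDKs and their inhibitors, which includes RB1, gave 3 higher (E2F3, CCND1 and CDKN2B) and 4 lower (RB1, CCND2, CDKN1A and CDKN1B) of 18. CCND1, cyclin D1, was 1.26 higher (adjusted p = 0.0234) at 160, 77.4 and 137 CPM against 45.5, 62.2 and 26.5 CPM, and was not called without replicate 1 (adjusted p = 0.166), on UMI-matched cells (0.426) or when UMIs of both genes were required (0.104). The inhibitors CDKN1A (p21) and CDKN1B (p27) fell by 1.59 and 1.25 on the log2 scale, with adjusted p = 0.000698 and 0.00171. Genes of mitosis gave 0 higher and 1 lower of 12, and genes of G1/S and replication 0 higher and 1 lower of 13. TOP2A, a mitotic topoisomerase, stood at 150, 332 and 141 CPM in members and 143, 258 and 137 CPM in other cells (-0.09 ± 0.16, adjusted p = 0.707).

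Metabolic lists changed in part. Hypoxia and glycolysis genes were higher in 7 of 15 (median 0.53) and in 2 without replicate 1. In the narrower comparisons below, 0 of 15 were called against IGF2 or MMP3 cells, and 5 of 15 were higher against SCGB3A2 or KRT8 cells. VEGFA, the vascular growth factor, stood at 39.1, 45.2 and 37.8 CPM against 12.5, 14.9 and 11.5 CPM (1.41 ± 0.15, adjusted p = 0.000509). Of 8 NRF2 antioxidant genes 2 were higher and 4 lower, with GCLM, of glutathione synthesis, at 1.83 ± 0.19 (adjusted p = 0.000448) and HMOX1, of haem breakdown and abundant in macrophages, at -1.87 ± 0.16 (0.000247). Of 7 hyaluronan genes, a polymer that naked mole-rat cells are known to make in a very long form, 2 were higher and 2 lower. The synthase HAS2 stood at 22.9, 7.76 and 14.1 CPM against 8.15, 5.08 and 3.73 CPM (1.10 ± 0.24, adjusted p = 0.0135). Its call was lost without replicate 1 (adjusted p = 0.137), without the animal block (0.112) and at a mitochondrial limit of 10% (0.055).

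Immune-facing genes were mostly lower in members than in all other cells. All 8 interferon response genes tested were lower in members (median -1.29), among them the RNA sensor OAS1 (-3.22 ± 0.26, adjusted p = 0.000162) and ISG15, at 562, 80.5 and 116 CPM against 865, 331 and 121 CPM (adjusted p = 0.0275). ISG15 was not called without replicate 1 (adjusted p = 0.0981), without the animal block (0.482) or on UMI-matched cells (0.0847). The count of the list fell to 3 of 8 without replicate 1 and to 1 of 8 against UMI-matched cells. MHC class II genes were lower in 4 of 5, and CD74, the invariant chain, stood at 1838, 1857 and 745 CPM against 5673, 8905 and 3940 CPM (-2.35 ± 0.21, adjusted p = 0.000255). MHC class I processing genes were lower in 5 of 9 and 2 against UMI-matched cells. Of 5 checkpoint ligands 2 were higher and 3 lower: NECTIN2 was 1.57 ± 0.16 higher (adjusted p = 0.000423), CD276 (B7-H3) 1.16 ± 0.20 (0.0051), and CD274 (PD-L1) fell by 1.38 on the log2 scale (adjusted p = 0.0173). The calls of CD276 and CD274 were lost without replicate 1 (adjusted p = 0.0604 and 0.103) and on UMI-matched cells (0.161 and 0.193), that of CD274 also with the stricter gate (0.166) and without the animal block (0.0591). Cytokines gave 3 higher and 5 lower of 12, with IL24 at 18.0, 12.7 and 36.1 CPM against 1.48, 1.15 and 1.29 CPM (3.72 ± 0.27, adjusted p = 0.000113) and IL1B at -3.12 ± 0.15. Stress and immediate early genes gave 0 higher and 4 lower of 7. The narrower comparisons below gave fewer calls. Against IGF2 or MMP3 cells, 0 of 8 interferon and 0 of 5 MHC class II genes were called. Class I processing genes gave 0 of 9 there, and checkpoint ligands 0 of 4. Against SCGB3A2 or KRT8 cells, class II genes gave 0 of 4 and class I genes 0 of 9. Interferon genes were lower in 3 of 7 there, and 1 of 4 checkpoint ligands was higher.

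Leukocyte markers were lower in the members. Of the tested markers, 5 of 5 myeloid, 7 of 7 T and NK, 3 of 4 B and plasma and 3 of 4 neutrophil genes were lower in members. The summed myeloid markers were 498 to 754 CPM in members and 3657 to 4706 CPM in other cells, and the T and NK markers 58.0 to 174 CPM and 384 to 998 CPM. Neutrophil markers summed to 204, 22.3 and 31.0 CPM in members and 86.5, 46.8 and 68.3 CPM elsewhere, with replicate 1 above its other cells. LTF, one of these markers, stood at 2178, 1637 and 8.90 CPM in the SCGB3A2-high epithelial members. The sum in replicate 1 is therefore not particular to neutrophils. B and plasma cell markers, almost all from the immunoglobulin chain IGKC, were 3201 to 3699 CPM in members and 30581 to 99649 CPM in other cells. Endothelial markers were lower in 4 of 5, at 18.5 to 29.8 CPM against 40.3 to 72.3 CPM. Mesothelial markers were lower in 2 of 4, and alveolar type 2 markers in 1 of 4, with SFTPC limited by the rule. The limits on SFTPC and on DMP1 and IBSP together took out 2, 13 and 2 cells in replicates 1, 2 and 3. The part of these limits in the marker levels was not tested. Club and ciliated markers gave 1 higher and 2 lower of 6, and bone markers 1 lower of 2, with DMP1 and IBSP limited by the rule. Neuroendocrine markers gave 2 higher and 0 lower of 5: UCHL1 stood at 82.1, 83.2 and 81.9 CPM against 28.2, 25.3 and 16.7 CPM (1.60 ± 0.16, adjusted p = 0.000405), and NCAM1 was 1.14 ± 0.19 higher (adjusted p = 0.00409), with no call under the stricter gate (adjusted p = 0.335) or on UMI-matched cells (0.126). CALCA, a peptide of lung neuroendocrine cells, had 0 counts in the members of all 3 animals, as did the mesothelial marker CALB2. The part of cell composition in the lower immune lists was not tested.

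A narrower comparison set the members against 343 cells (245, 43 and 55 per animal) with IGF2 and MMP3 together at 20 or more per 10000. They form a mesenchymal class with MMP3, a stromal metalloproteinase. Their gate also asked for SCGB3A2 and KRT8 together under 20, and KRT14 and SPINK5 together under 5, per 10000. The limits on DMP1, IBSP and SFTPC were kept. Members had no limit on SCGB3A2 and KRT8, so the gates favoured higher epithelial genes in members. How far they did so was not tested. Here 216 of 10779 features were called (2.00%), 135 higher (1.25%) and 81 lower (0.751%). EPCAM was 4.84 ± 0.25 higher in the KRT14 or SPINK5 cells (adjusted p = 0.000236), with 12.1, 1.40 and 9.44 CPM in the IGF2 or MMP3 cells. ITGB4 was 5.44 ± 0.44 higher (adjusted p = 0.00144) from 1.31, 0 and 0 CPM, and KRT17 3.45 ± 0.34 (0.00282, and 0.063 without the animal block) from 19.2, 111 and 45.9 CPM. CRYM, at 183, 36.3 and 94.6 CPM against 1.49, 1.40 and 1.35 CPM, was 6.60 ± 0.38 higher, and EHF was 5.51 ± 0.31 higher. Hemidesmosome and laminin genes were higher in 4 of 8, simple epithelial genes in 4 of 6, desmosome genes in 3 of 7 and squamous genes in 3 of 7, with 0 lower in each. These counts, in the same order, were 7 of 9, 8 of 9, 8 of 11 and 6 of 9 without replicate 2, and 1, 1, 0 and 1 without the animal block. Without replicate 1 they were 4 of 8, 2 of 6, 0 of 6 and 2 of 7, and without replicate 3 they were 3 of 8, 3 of 6, 1 of 7 and 2 of 7. In the basal list KRT17 alone was called of 6 tested, since KRT5 and TP63 were too low to be tested. That list gave 6 higher and 1 lower of 10 without replicate 2, the same numbers of 14 with no filter on low counts, and 0 of 6 without the animal block.

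Mesenchymal genes were lower in 5 of 18 and higher in 0 in this comparison, and lower in 1 of 18 without the animal block, 2 of 17 without replicate 1 and 1 of 19 without replicate 3. COL3A1 stood at 1293, 506 and 885 CPM against 2909, 2687 and 2102 CPM (-1.64 ± 0.27, adjusted p = 0.0218), and COL1A2 was -2.15 ± 0.41 (0.0415). Both calls were lost without the animal block (adjusted p = 0.144 and 0.496) and without replicate 3 (0.0915 and 0.133), that of COL3A1 without replicate 1 (0.0544) and that of COL1A2 on UMI-matched cells (0.0707). MMP2, a gelatinase of stromal cells, stood at 103, 75.4 and 47.9 CPM against 386, 569 and 256 CPM (-2.45 ± 0.23, adjusted p = 0.00276). Smooth muscle genes were lower in 3 of 8, in 5 of 8 without replicate 2, in 1 of 8 without replicate 3 and in 0 of 8 without the animal block. Genes of mitosis and of ALK and MAPK output gave 0 calls, of 12 and 10 tested. ALK stood at 8.40, 8.43 and 9.44 CPM in the IGF2 or MMP3 cells, near the 9.25 CPM of members in replicate 1 and below the 52.1 and 18.1 CPM of the others (1.02 ± 0.42, adjusted p = 0.343, and 0.0139 with no filter on low counts). SERPINE2 did not differ beyond its error (0.05 ± 0.69, adjusted p = 0.994), with 560, 940 and 1082 CPM in these cells. Without replicate 2 it was lower in members (-1.01, adjusted p = 0.0195), mesenchymal genes were lower in 11 of 18, and 496 features were higher and 289 lower.

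A second narrower comparison was with 86 cells (31, 3 and 52 per animal) that had SCGB3A2 and KRT8 together at 20 or more per 10000. They form a secretory epithelial class with 237851, 68246 and 709421 UMIs in all. Their gate also asked for IGF2 and MMP3 together under 20, and KRT14 and SPINK5 together under 5, per 10000. The limits on DMP1, IBSP and SFTPC were kept. Members had no limit on IGF2 and MMP3, so the gates favoured higher mesenchymal and lower secretory genes in members. How far they did so was not tested. Of 9791 features, 773 were called (7.90%), 363 higher (3.71%) and 410 lower (4.19%), and replicate 2 contributed 3 cells of that class. Mesenchymal genes were higher in 14 of 17 and lower in 0. COL1A1, with 25.2, 14.7 and 25.4 CPM in the secretory class, was 6.10 ± 0.51 higher (adjusted p = 1.26e-17). VIM was 3.15 ± 0.41 higher (adjusted p = 1.45e-09) from 378, 381 and 1150 CPM, and SPARC 4.21 ± 0.47 (3.81e-12). SERPINE2, at 33.6, 58.6 and 36.6 CPM in the secretory class, was 4.31 ± 0.47 higher (adjusted p = 1.9e-12), and TIMP1 3.99 ± 0.42 (9.37e-13). KRT17 was 2.47 ± 0.44 higher (adjusted p = 1.05e-05) from 54.7, 0 and 306 CPM, with no call on UMI-matched cells (0.136) or without the animal block (0.21).

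Hemidesmosome and laminin genes gave 0 calls of 9 in this comparison, and LAMB3 stood at 206, 205 and 276 CPM in the secretory class against 282, 137 and 522 CPM (0.37 ± 0.37, adjusted p = 0.71). Simple epithelial genes were lower in 6 of 9, and in 2 with the stricter gate or on UMI-matched cells, 3 without replicate 3 and 3 without the animal block, with EPCAM at 551, 791 and 730 CPM in the secretory class (-1.64 ± 0.37, adjusted p = 0.00072) and CLDN7, a claudin, at -3.51 ± 0.42 (8.58e-11). The call of EPCAM was lost with the stricter gate (adjusted p = 0.196), on UMI-matched cells (0.122) and without the animal block (0.122). The lung factors NKX2-1 (-2.04 ± 0.39, adjusted p = 3.59e-05) and FOXA2 (-3.00 ± 0.50, 2.18e-06) were lower, NKX2-1 with no call on UMI-matched cells (adjusted p = 0.0515). All 4 alveolar type 2 markers tested were lower. Of 10 desmosome and cadherin genes 3 were lower (CDH1, EVPL and PPL) and 0 higher. Of 7 squamous differentiation genes 3 were lower (SBSN, KRTDAP and S100A14) and 0 higher. Genes with 0 counts in the secretory class were bounded against 3 counts over its group, 2.95 CPM. On that basis C1QTNF12, at 91.4, 121 and 106 CPM in members, was at least 36.6-fold higher, SFRP4, a WNT antagonist, at least 35.9-fold, the collagenase MMP13 at least 28.6-fold and FOSL1 at least 11.1-fold. Genes of mitosis were higher in 6 of 12, but in 1 without replicate 1 and in 0 with the stricter gate or on UMI-matched cells. ALK gave 8.41, 14.7 and 16.9 CPM in the secretory class and was not called (0.49 ± 0.60, adjusted p = 0.786).

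Cells with DMP1 or IBSP at 5 or more per 10000 numbered 1, 96 and 0, so no comparison was fitted and replicate 2 is given side by side. ALK stood at 52.1 CPM in the KRT14 or SPINK5 cells and 57.0 CPM (45.8 to 70.1) in the DMP1 or IBSP cells of that animal, with overlapping intervals. KRT17 stood at 628 against 70.3 CPM and SERPINE2 at 5296 against 719 CPM. COL1A1 stood at 309 against 4686 CPM and SPP1, osteopontin of bone and macrophages, at 405 against 212319 CPM. TIMP1 was high in both, at 15160 and 11599 CPM.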

How the data were processed

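The deposited files of 3 animals give, per the file headers, whole-number UMI counts for each gene in each barcode, not normalized. The file headers name Cell Ranger 7.1.0 and the submitters' processing notes version 8.0.0. The genome build, with its annotation, is not given in the sources used here. Of 23189 features, 11611 carry no symbol. They were tested and not named, and no sequences were used.

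Cells were kept with at least 1000 UMIs, 500 genes and under 20% of UMIs in 13 mitochondrial genes. No doublets were removed in the main analysis. The members and the 37 gene lists (384 of 539 genes measured) were chosen with earlier results of these data known, and subgroups after their values were seen. Counts were summed per animal and class and tested in edgeR 4.0.16 (R 4.3.3) with filterByExpr, TMM, quasi-likelihood and the animal as block, since both sums of a pair come from the same animal. Genes used by either gate were left out of the tests. P-values were adjusted by Benjamini-Hochberg at 0.05, and SE is the log2 difference divided by the square root of F. Nothing beyond the replicate numbers says how the animals relate. Genes named are those of the rule, SERPINE2, ALK and RB1, list members with a described role or the lowest adjusted p, and the largest called differences (15 up and 10 down, 6 and 6 in narrower comparisons) that went 1 way in 3 of 3 animals at 20 CPM or more. Some genes that the rule names are not reported here. Subgroup genes were named after their values were seen. CPM are UMIs per 1000000 of the summed class, which held from 4261429 to 6444861 UMIs in members. Alternatives were DESeq2 1.42.0, no filter, no block, other gates and cell filters, UMI-matched other cells (up to 5 per member), equal cell weights in limma 3.58.1, and leaving out each animal.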

Additional observations from a re-analysis of the deposited data

How the results depend on the processing

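Against all other cells, 1872 higher and 2330 lower features became 1235 and 1735 with no replicate block, 875 and 1341 on UMI-matched cells, and 777 to 2750 and 1221 to 2982 when 1 animal was left out. Against IGF2 or MMP3 cells, 135 higher and 81 lower became 25 and 9 with no replicate block, 581 and 364 with no filter on low counts, 144 and 124 with DESeq2, and 38 to 496 and 12 to 289 with 1 animal left out. Against SCGB3A2 or KRT8 cells, 363 higher and 410 lower became 170 and 214 with no replicate block, 187 and 299 with DESeq2, 149 and 175 with the stricter gate, 102 and 118 on UMI-matched cells, and 109 to 522 and 159 to 568 with 1 animal left out. DESeq2 gave no adjusted p for 380 features there. The mean share of cells was 1.35% with the stricter gate and 1.42% when UMIs of both genes were required. Of the named values, IGFBP5 turned to -0.045 on UMI-matched cells (adjusted p = 0.891), and LTF to -2.49 at a mitochondrial limit of 10% (adjusted p = 0.0232). SERPINE2 turned to -1.01 against IGF2 or MMP3 cells without replicate 2 and lay at 1.05 without replicate 3. Against all other cells, 2478 of the recomputed gene values kept their call or lack of one, 175 lost the call, 57 gained one and 2 reversed. A changed sign was counted as reversed only where at least 1 of the 2 fits passed 0.05. The cause of these changes was not tested. The DMP1 or IBSP comparison and its alternatives were not run, since replicates 1 and 3 held 1 and 0 such cells.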
